A study of Rattus norvegicus with 6 samples.

Results

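The genes described here take part in the uptake of fatty acids from circulating lipoproteins into cells, or are linked to it. They are Fabp4, Fabp3, Fabp5, Cd36, Lpl, Gpihbp1, Pparg and Adipoq, 8 genes in all of 14217 that had a probe set of their own on the array. They were chosen by name, when it was already known from these arrays that Fabp4 differed between the groups. Its change is therefore a description and no independent support for the choice. The probe set of a gene was to be selected on its mean value over the 6 arrays, but each gene had 1 probe set that names it alone, so that choice never arose. RNA came from mammospheres, spheres of mammary cells grown in suspension, and was measured on Affymetrix 3' arrays. The hCG group (3 arrays, numbered 5, 6 and 7) came from female Sprague Dawley rats injected intraperitoneally each day with 100 IU of recombinant human chorionic gonadotropin (r-hCG, OVIDREL), a pregnancy hormone that acts on the ovary. The Control group (3 arrays, also numbered 5, 6 and 7) came from rats of the same strain, sex and age given phosphate buffered saline. In both groups injections began at 55 days of age and lasted 21 days, glands 4 and 5 were removed 21 days after the last injection, and epithelium-enriched cells were cultured for 7 days with EGF, bFGF and heparin. The labels give an enrichment for epithelial cells and no sorting step, so other cells of the gland may have been carried along.

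Lipoprotein lipase, the product of Lpl, cuts fatty acids from triglyceride-rich lipoproteins at the capillary wall. Gpihbp1 encodes the protein of capillary endothelium that carries the lipase to the vessel lumen and holds it there. Cd36 is a membrane receptor that takes up long-chain fatty acids, and the FABP proteins bind them inside the cell. Pparg is a nuclear receptor activated by fatty acids that drives fat cell formation and turns on Fabp4, Cd36, Lpl and Adipoq, and Adipoq encodes adiponectin, a hormone of fat cells. In the mammary gland these genes serve fat cells, capillaries and the milk-secreting epithelium, and Fabp4 marks both fat cells and capillary endothelium.

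Promoter windows of 300 bases, from 250 before to 50 after an annotated gene start, were available from RefSeq (rat build GRCr8) for Cd36, Pparg, Fabp3 and Adipoq. The windows of Cd36 and of the 2 annotated starts of Pparg are shown because both genes had every hCG value above every Control value and Pparg can regulate Cd36. They run 5′ to 3′ on the plus strand, at chr4:18246332-18246631 for Cd36, chr4:150096808-150097107 for the first Pparg start and chr4:150154522-150154821 for the second. Capitals mark every exact match, on either strand, to the motifs searched.
Cd36: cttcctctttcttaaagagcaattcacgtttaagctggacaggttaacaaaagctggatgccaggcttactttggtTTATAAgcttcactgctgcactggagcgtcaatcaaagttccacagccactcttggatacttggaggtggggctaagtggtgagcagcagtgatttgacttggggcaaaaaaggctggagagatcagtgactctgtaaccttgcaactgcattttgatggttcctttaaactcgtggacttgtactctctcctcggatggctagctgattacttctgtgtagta
Pparg, first start: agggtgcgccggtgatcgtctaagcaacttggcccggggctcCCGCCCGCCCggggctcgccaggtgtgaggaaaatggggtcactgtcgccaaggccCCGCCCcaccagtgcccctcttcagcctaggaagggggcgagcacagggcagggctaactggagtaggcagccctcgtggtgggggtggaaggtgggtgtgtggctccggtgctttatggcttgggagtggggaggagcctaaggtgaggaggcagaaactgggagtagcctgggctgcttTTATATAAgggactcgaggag
Pparg, second start: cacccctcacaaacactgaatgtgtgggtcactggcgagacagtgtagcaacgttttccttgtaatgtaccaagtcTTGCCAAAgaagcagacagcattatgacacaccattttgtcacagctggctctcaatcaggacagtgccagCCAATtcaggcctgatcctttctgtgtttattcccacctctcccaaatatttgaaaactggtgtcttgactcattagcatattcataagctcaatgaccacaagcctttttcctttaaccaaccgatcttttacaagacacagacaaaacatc

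The search covered the TATA box with the letters TATAA, the GC box with GGGCGG, and the CCAAT box. It also covered the core sites of C/EBP factors, written TTGCNNAA, of Ets factors, written CCGGAA, and of E box factors, written CACGTG. Nuclear receptors bind the core AGGTCA, and the PPAR element joins a pair of these cores 1 base apart, so that each such element also holds the single core. The Cd36 window held TATAA at bases 78 to 82, counted from 1 at its 5′ end, overlapping a match on the other strand. The first Pparg window held TATAA at bases 283 to 287, again overlapping a match on the other strand, and 3 GC boxes on the minus strand, of which those starting at bases 43 and 47 overlap. The second held CCAAT at bases 148 to 152 and TTGCNNAA at bases 77 to 84. Of all 33469 windows of this length, 26.2% held TATAA, 33.1% the GC box, 37.5% CCAAT and 10.6% TTGCNNAA. The Fabp3 window held no match to any of the motifs, and the Adipoq window, on chromosome 11, held 2 CCAAT boxes. AGGTCA was not among the letters of any of the 5 member windows, against 16.2% of all windows, and the PPAR element occurred in 0.0538% of all windows. Ets cores (15.0% of all windows) and E boxes (6.42%) were likewise not found in the member windows.

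In mammospheres of hCG-treated rats, 6 of the 8 members were bright enough to enter the test over all genes. Of these Fabp4 alone passed, at 3.75 times the level of the Control spheres, where 1.82% of all tested genes passed in either direction. Gpihbp1 and Cd36 lay higher on every hCG array by smaller amounts and did not pass. Of all tested genes, 19.3% had every hCG value above every Control value. Pparg, too dim for that test, lay higher from a level near the dim end of the array. It fell just short in a fit with dim genes included. Fabp5, Fabp3, Lpl and Adipoq had overlapping values in the groups.

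The carrier Fabp4 had log2 expression of 6.04, 6.08 and 6.14 on hCG arrays 5, 6 and 7, against 3.63, 4.22 and 4.70 on Control arrays 5, 6 and 7. The hCG arrays lay close together, the Control arrays were spread out, and every hCG value was above every Control value. The means were 6.09 ± 0.05 for hCG and 4.18 ± 0.54 for Control (SD, n = 3 arrays each), a log2 change of 1.91 with a standard error (SE) of 0.25 and a 95% interval from 1.32 to 2.49. The adjusted p was 0.0353 (limma, Benjamini-Hochberg over the 10424 genes tested). The call depended on most arrays together. The adjusted p was 0.113 without hCG 5, 0.174 without hCG 7, 0.0639 without Control 5 and 0.114 without Control 6, with log2 changes of 1.93, 1.88, 1.63 and 1.92. In each of these 4 fits limma called 0 genes at all, although between 1455 and 1950 genes had an unadjusted p under 0.05 (2510 in the fit to 6 arrays).

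Fabp5, the epidermal-type carrier that many epithelial cells and macrophages express, had log2 expression of 9.67, 9.87 and 9.88 on the hCG arrays and 9.48, 9.70 and 9.94 on the Control arrays. The highest value of all was on Control 7, and the groups overlapped. Its log2 change was 0.10 (SE 0.13), with a 95% interval from -0.21 to 0.42 that allows a fold between 0.86 and 1.33 (limma adjusted p = 0.680). Without Control 5 its log2 change was -0.01.

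Fabp3, the heart-type carrier, known from cattle and mice as the mammary-derived growth inhibitor, had log2 expression of 3.96, 4.62 and 4.32 on the hCG arrays and 4.65, 4.40 and 4.42 on the Control arrays. The lowest value was on hCG 5 and the groups overlapped. The log2 change was -0.19 (SE 0.17, 95% interval -0.60 to 0.22, limma adjusted p = 0.535).

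In the RefSeq gene order of the rat (GRCr8), Fabp4 and Fabp5 lie in a cluster of FABP genes on chromosome 2, in the order Fabp12, Fabp4, Fabp9, Pmp2 and Fabp5. The 3 others of the cluster were below the filter level on average, with log2 means between 1.24 and 1.78 in hCG spheres and between 1.33 and 1.78 in Control spheres. Their log2 changes lay between -0.09 and 0.00. Impa1, a phosphatase gene upstream of Fabp12, had log2 means of 7.69 and 7.58 in hCG and Control spheres and a change of 0.11 (limma adjusted p = 0.445). The other FABP genes on the array, Fabp1, Fabp2, Fabp6 and Fabp7, which are known from liver, gut and brain, were also below the filter level.

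**Figure D1:**
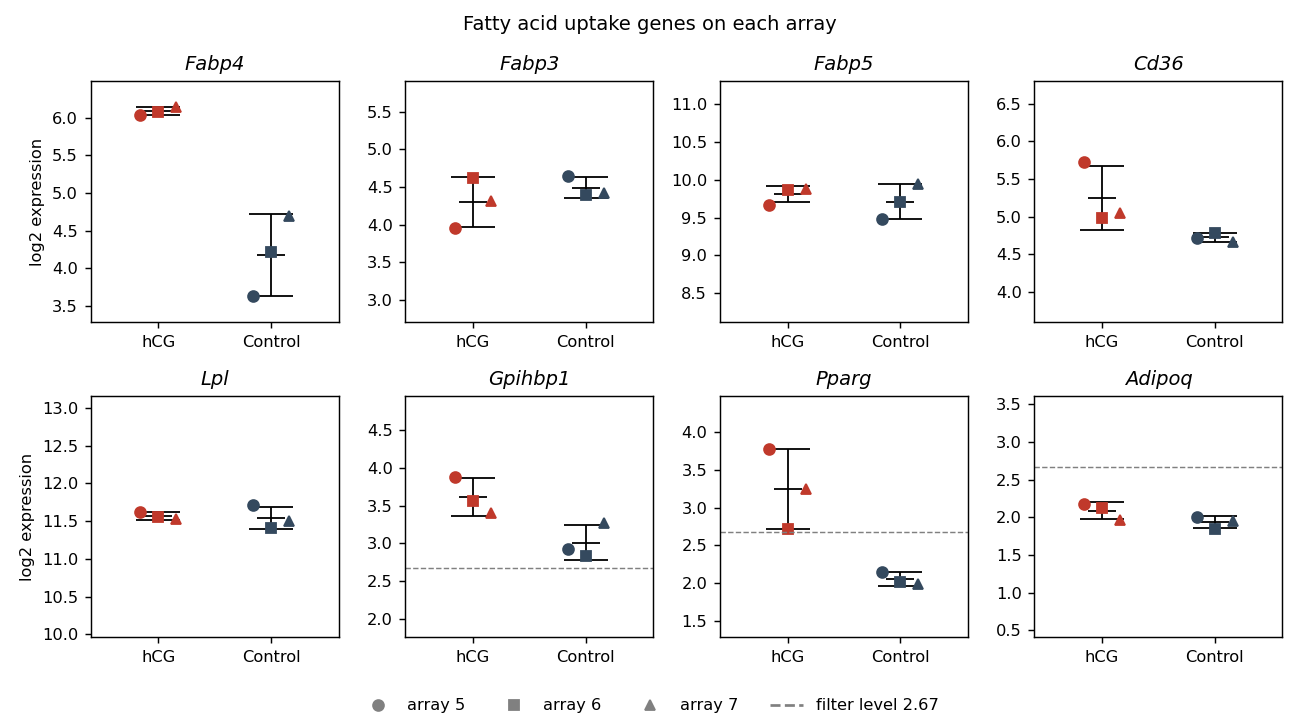
Log2 expression of the 8 genes on each array, hCG left and Control right, with circles, squares and triangles for arrays 5, 6 and 7, bars for mean and SD (n = 3) and a dashed line at the filter level of 2.67. Fabp4 values sit between 6.04 and 6.14 on hCG arrays and between 3.63 and 4.70 on Control arrays, and Pparg crosses the dashed line between the groups.

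The uptake receptor Cd36 had log2 expression of 5.73, 4.98 and 5.05 on the hCG arrays and 4.72, 4.79 and 4.67 on the Control arrays. All 3 hCG values exceeded the Control values, but hCG 5 stood well above the other two. Means were 5.25 ± 0.42 and 4.73 ± 0.06 (SD, n = 3 each), with a log2 change of 0.53 (SE 0.20, 95% interval 0.06 to 1.00) and a limma adjusted p of 0.171. Without hCG 5 the log2 change was 0.29. The difference was thus of the size of the spread among hCG arrays and did not pass.

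Lpl had log2 expression of 11.62, 11.55 and 11.53 on the hCG arrays and 11.71, 11.41 and 11.50 on the Control arrays. The Control arrays held both the highest and the lowest value. The log2 change was 0.02 (SE 0.10), and its 95% interval from -0.21 to 0.26 allows a fold between 0.86 and 1.20 (limma adjusted p = 0.906). The sign was not stable: 10 of 16 alternatives gave a positive change. The heparin in the medium is known to release the lipase protein from cell surfaces, which RNA levels do not show.

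Gpihbp1, the endothelial partner of the lipase, had log2 expression of 3.88, 3.56 and 3.40 on the hCG arrays and 2.92, 2.83 and 3.27 on the Control arrays. The groups did not overlap, with the lowest hCG value close above Control 7. Means were 3.61 ± 0.25 and 3.01 ± 0.23 (SD, n = 3 each), a log2 change of 0.61 (SE 0.16, 95% interval 0.22 to 1.00) that missed the threshold (limma adjusted p = 0.0972). It was called in 1 of 15 alternatives, array weights (limma adjusted p = 0.0291), and the highest adjusted p was 0.25, without hCG 5. Leaving out single arrays gave log2 changes between 0.47 and 0.74. Its mean of 3.31 over the 6 arrays was the lowest of the 6 members above the filter level.

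Pparg was just below that level, at a mean of 2.64. It had log2 expression of 3.78, 2.71 and 3.24 on the hCG arrays and 2.15, 2.01 and 1.98 on the Control arrays. All hCG values were above the filter level of 2.67 and all Control values below it. In the fit without the filter, which called 1.88% of 14217 genes, the log2 change was 1.20 (SE 0.24, 95% interval 0.64 to 1.76) with a limma adjusted p of 0.0534. Without hCG 6, the hCG array of lowest Pparg, the log2 change was 1.46 and the adjusted p 0.0230. Without hCG 5, the array of highest Pparg, these were 0.93 and 0.106. The Control values lay near the dim end of the array, which limits the precision of the fold.

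Adipoq was below the filter level on every array, with log2 expression of 2.17, 2.12 and 1.97 on the hCG arrays and a mean of 1.94 ± 0.08 on the Control arrays (SD, n = 3). The groups overlapped, since Control 5 was above hCG 7, and the log2 change was 0.15 (SE 0.09, 95% interval -0.06 to 0.36, limma adjusted p = 0.392 without the filter).

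**Figure D2:**
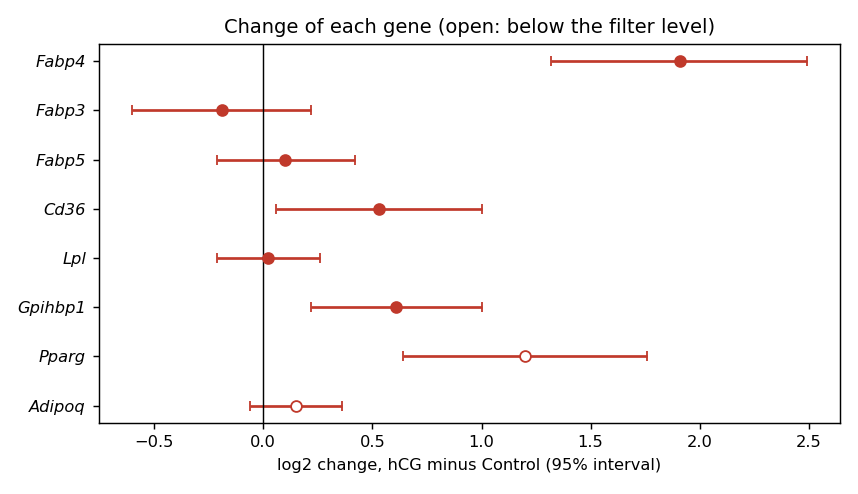
Log2 change of each gene, hCG minus Control, with its 95% interval from limma, and open circles for the 2 genes below the filter level. The interval of Fabp4 runs from 1.32 to 2.49, while those of Fabp3, Fabp5, Lpl and Adipoq include 0.

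Of the 6 members above the filter level, 1 was called higher and 0 lower by limma, where 1.01% of all tested genes were called higher, 0.815% lower and 1.82% in either direction. At an unadjusted p under 0.05, 3 of the 6 were higher (Fabp4, Gpihbp1 and Cd36) and 0 lower, against 14.4% and 9.64% of all tested genes. All hCG values lay above all Control values in the same 3, as in 19.3% of all tested genes, and in none below, as in 12.3%. The median log2 change of the 6 was 0.31 and that of all tested genes 0.03. Nothing is read from these counts, since the genes were chosen with a result of this contrast known.

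Set against the other members, the log2 change of Fabp4 exceeded that of Fabp5 by 1.80, that of Fabp3 by 2.10, that of Lpl by 1.88 and that of Adipoq by 1.76. It exceeded that of Cd36 by 1.38, that of Gpihbp1 by 1.30 and that of Pparg by 0.71. Fabp4 minus the other gene was higher on all hCG arrays than on all Control arrays for 6 of the 7 genes, and overlapped for Pparg. An exact two-sided permutation test over arrays gave p = 0.1, the smallest possible, for those 6 genes and p = 0.2 for Pparg. The test could not reach 0.05, so Fabp4 was not shown to differ from the other members. These differences are a description, since Fabp4 was already known to differ when the genes were chosen.

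The genes whose pattern over the 6 arrays was nearest to that of Fabp4 were Emcn, Cd93, Adgrl4, Kcne3 and Sox17. Nearness was the root mean square difference of log2 values after each gene's Control mean was subtracted, and it was 0.127, 0.140, 0.207, 0.211 and 0.233. Emcn, Cd93 and Adgrl4 encode surface proteins of endothelial cells, Sox17 a transcription factor of arterial endothelium and Kcne3 a potassium channel subunit. Emcn had 6.88, 7.11 and 6.90 on the hCG arrays and 4.60, 4.91 and 5.71 on the Control arrays, so that, as with Fabp4, Control 7 lay nearest to the hCG arrays. Genes were picked here for their nearness, so a pattern shared with the member was fixed by the choice and is no separate support. Emcn, Cd93, Adgrl4 and Sox17 also belong to the endothelial list below. The nearest patterns to Cd36 were those of LOC100911506, Epha4 and Vstm4, at 0.087, 0.092 and 0.109, each with its highest value on hCG 5. Those nearest to Fabp5 were Atad3a, Large2 and Hemk1 (0.029, 0.034 and 0.036), and those nearest to Lpl were Ccdc115, Elac1 and Miat (0.021, 0.024 and 0.026), all of them with overlapping groups.

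Most endothelial markers were, like Fabp4, higher in the hCG group. The list was chosen with earlier results of these data known, so its counts are a description and no independent support. Of 19 tested markers 18 had a positive change, against 55.8% of all tested genes. By limma 7 were called higher (1.01% of all tested genes) and 0 lower: Sox17, Esam, Emcn, Adgrl4, Sox18, Cd93 and Erg. Sox17, with a Control mean of 2.23, was below the filter level there and passed the filter through its hCG mean of 4.38. The median log2 change of the list was 1.23, against 0.03 for all tested genes. The mean of the list minus its Control mean, a log2 level, was 1.15, 1.17 and 1.07 on hCG arrays 5, 6 and 7 and -0.36, -0.17 and 0.53 on Control arrays 5, 6 and 7. Among the Control arrays the list was lowest on Control 5 and highest on Control 7, an order also seen in Fabp4, in Fabp5 and in the epithelial markers described below, and so not one that sets Fabp4 and the endothelial list apart. Pecam1, the adhesion protein common to endothelial cells, had a log2 change of 1.61 (limma adjusted p = 0.0711). The VEGF receptor gene Kdr had one of 1.23 (adjusted p = 0.0785). Eng, the tested marker with a negative change, had one of -0.21, and Flt1 one of 0.06 (limma adjusted p = 0.320 and 0.842). Below the filter level were Nos3, Tie1 and Vwf, with log2 changes of 1.00, 0.67 and -0.10 (limma adjusted p = 0.0415, 0.0702 and 0.598 without the filter). The count of 7 was 15 without Control 7, 0 without hCG 5, hCG 7, Control 5 or Control 6, and 4 with the array number as a block. The part of endothelial cells in the change of Fabp4 was not tested, and in such bulk samples more cells of a type cannot be told apart from more RNA per cell.

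Genes known for capillaries as such gave mixed values, with no call, so the 8 genes are called fatty acid uptake genes here and not capillary genes. The mean level of the 5 tested markers was higher on every hCG array, from 0.42 to 0.48, against -0.21 to 0.27 on Control arrays, with a median log2 change of 0.52. Of 11 such markers on the array, 6 were below the filter level. Among these, Rgcc, a cell cycle regulator, and Car4, a carbonic anhydrase on the capillary surface, had log2 changes of 0.07 and 0.06, and Timp4 one of 0.06. Aplnr, the apelin receptor gene, had one of 0.59, Btnl9 one of 0.33 and Esm1 one of -0.18, with limma adjusted p of 0.156, 0.0981 and 0.324 without the filter. The homeobox gene Meox2, which in mice regulates fatty acid uptake by heart capillaries together with Tcf15, had 4.17, 3.98 and 4.12 on the hCG arrays and 4.35, 3.99 and 4.25 on the Control arrays (log2 change -0.11, limma adjusted p = 0.616). The water channel gene Aqp1 had a change of -0.35 (adjusted p = 0.367). None of the 5 tested markers was called. At an unadjusted p under 0.05, 3 were higher and 0 lower: the kinase gene Sgk1 (0.52), Kdr and Plvap (0.92), which forms the diaphragms of endothelial pores. Over all tested genes 14.4% were higher and 9.64% lower at that p. Kdr and Plvap are also in the endothelial list above, so the lists are not independent. Tcf15, the endothelial cadherin gene Cdh5 and the fat cell gene Retn were not analysed here.

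Markers of fat cells gave no call. Plin1 and Cidec, which coat the lipid droplet of fat cells, the leptin gene Lep and the adrenergic receptor gene Adrb3 were below the filter level. Of 8 tested adipocyte markers none was called in either direction (1 higher and 2 lower at an unadjusted p under 0.05), and their mean level ran from -0.11 to 0.03 on hCG arrays and from -0.05 to 0.09 on Control arrays. Over all tested genes 14.4% were higher and 9.64% lower at that p, and 1.01% were called higher. Dgat2, which makes triglycerides, had a log2 change of -0.42, the lipase gene Pnpla2 one of -0.51 and Cfd, the protease adipsin, one of 1.01 (limma adjusted p = 0.0622, 0.106 and 0.0839), each with no overlap between the groups. Of all tested genes, 19.3% had every hCG value above and 12.3% every hCG value below the Control values. Macrophages also express Cd36 and Fabp4. The mean level of 9 tested macrophage markers overlapped between the groups, from -0.26 to 0.09 on hCG arrays and from -0.17 to 0.29 on Control arrays. This mean joins markers that went opposite ways, with 3 higher and 3 lower at an unadjusted p under 0.05 and none called. Lyz2, Fcer1g and Tyrobp had log2 changes of 0.90, 0.78 and 0.55, and Cd68, Ptprc and Cd14 changes of -1.33, -1.09 and -0.66. The mean is therefore no measure of macrophage content. Of 7 tested pericyte markers, whose level ran from 0.08 to 0.35 on hCG arrays and from -0.03 to 0.02 on Control arrays, 1 was called higher, Rgs5 (log2 change 0.66, limma adjusted p = 0.0439), and its adjusted p ranged from 0.00651 to 0.196 in 15 alternatives, of which 10 kept the call. Its Control mean of 2.47 was below the filter level, and it passed the filter through its hCG mean of 3.13. Abcc9, a channel subunit gene, had a log2 change of 1.03 and Notch3 one of -0.17 (adjusted p = 0.136 and 0.286). Abcc9 likewise passed the filter through its hCG mean of 3.61, with a Control mean of 2.59. Notch3 passed through its Control mean of 2.77, with an hCG mean of 2.60. Skeletal muscle, which expresses Fabp3, had no called marker among 6 tested (0 higher and 1 lower at an unadjusted p under 0.05). The mean level of these markers ran from -0.60 to 0.49 on hCG arrays and from -0.25 to 0.30 on Control arrays. Myh1, Des and Acta1, of the contractile apparatus, differed by -0.27, -0.31 and 0.57 on the log2 scale (limma adjusted p = 0.127, 0.505 and 0.595). The part of these other cell types in the members' values was not tested. The 12 epithelial markers, all above the filter level, had mean levels of -0.20, -0.18 and -0.34 on hCG arrays 5, 6 and 7 and of -0.85, 0.16 and 0.69 on Control arrays 5, 6 and 7, so that the groups overlapped. None was called by limma and 0 had an unadjusted p under 0.05. The transcription factor gene Elf3 and the tight junction genes Cldn7 and Cldn3 had log2 changes of -0.35, -0.92 and -0.78 (adjusted p = 0.226, 0.246 and 0.250).

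**Figure D3:**
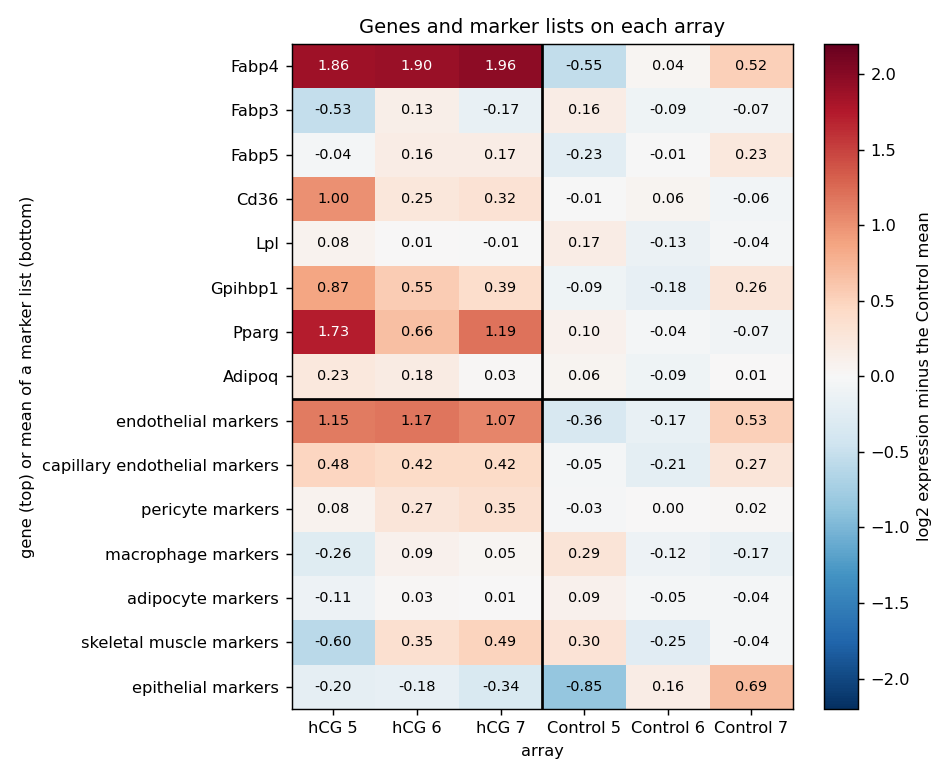
Log2 expression minus the Control mean on each array (columns, hCG left), for the 8 genes and for the mean of each marker list (rows), with red above and blue below the Control mean. Fabp4 and the endothelial markers share high values on all 3 hCG arrays and an intermediate value on Control 7 (0.52 and 0.53), where the epithelial markers are highest (0.69).

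Partners of the lipase and receptors of lipoproteins gave no call. Of 12 tested genes 11 had a negative change (median log2 change -0.23), while 55.8% of all tested genes had a positive one (median 0.03). At an unadjusted p under 0.05, 4 of the 12 were lower and 0 higher, against 9.64% and 14.4% of all tested genes. Furin, a protease that cuts lipase and its inhibitors, had 5.27, 6.23 and 5.64 on the hCG arrays and 6.90, 6.87 and 7.10 on the Control arrays, a log2 change of -1.25 (SE 0.23, limma adjusted p = 0.0512). Angptl4, an inhibitor of the lipase and a target of PPARs, had 8.29, 8.18 and 8.04 against 8.69, 8.56 and 8.63, a log2 change of -0.46 (SE 0.09, adjusted p = 0.0582). In both genes every hCG value was below every Control value, as in 12.3% of all tested genes. Lrp1, a receptor of lipoprotein remnants, had a change of -0.31 (adjusted p = 0.154), and Lmf1, which matures the lipase in the cell, one of -0.03 (adjusted p = 0.854).

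Other carriers and activating enzymes of fatty acids showed no call among 12 tested genes, with 0 higher and 3 lower at an unadjusted p under 0.05. Over all tested genes 14.4% were higher and 9.64% lower at that p. Acsl5, Acsl1 and Acsl4, which couple fatty acids to coenzyme A, differed by -0.49, -0.49 and -0.36 on the log2 scale (limma adjusted p = 0.0559, 0.196 and 0.205). The transport proteins Slc27a1, Slc27a3 and Slc27a4 had changes of -0.29, 0.15 and -0.18, and the caveolar protein gene Cav1 one of 0.20 (adjusted p between 0.299 and 0.607). Among 13 tested regulators of endothelial fatty acid uptake none was called, with 1 higher and 1 lower at an unadjusted p under 0.05. The receptor gene Notch1, which in mice promotes fatty acid transport by heart endothelium, had 7.85, 7.53 and 7.79 on the hCG arrays and 6.81, 7.03 and 7.18 on the Control arrays. Its log2 change of 0.71 (SE 0.13) missed the threshold by little (limma adjusted p = 0.05004), and it passed in 8 of 16 alternatives. Foxo1, a transcription factor gene that in endothelium restrains growth, had a change of -0.32 (adjusted p = 0.185). Vegfb, the growth factor that in mice raises endothelial fatty acid uptake, had a change of -0.47 (adjusted p = 0.225), and its receptor gene Flt1 one of 0.06 (adjusted p = 0.842).

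Among known targets and partners of the PPAR receptors, 0 of 23 tested genes were called higher and 1 lower by limma. Over all tested genes these shares were 1.01% and 0.815%. Of the 23 changes 16 were negative (median log2 change -0.08), while 55.8% of all tested genes had a positive one. At an unadjusted p under 0.05, 1 was higher and 6 lower, against 14.4% and 9.64% of all tested genes. The called gene was Cpt1a, the entry enzyme of mitochondrial fatty acid oxidation, which had 5.97, 6.26 and 6.09 on the hCG arrays and 7.34, 7.16 and 6.96 on the Control arrays. It fell by 1.05 on the log2 scale (SE 0.13, limma adjusted p = 0.0325), and the call was lost without hCG 5, hCG 7, Control 5 or Control 6 (highest adjusted p 0.174), as for Fabp4. Plin2, which coats lipid droplets, had a log2 change of -0.37 (adjusted p = 0.0582), Ppargc1a, a coactivator of PPARs, one of -1.33 (adjusted p = 0.0815) and Rxra, the partner receptor, one of -0.09 (adjusted p = 0.577). Pdk4, Aqp7, Gpd1, Pck1 and Plin5, further known targets, were below the filter level.

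**Figure D4:**
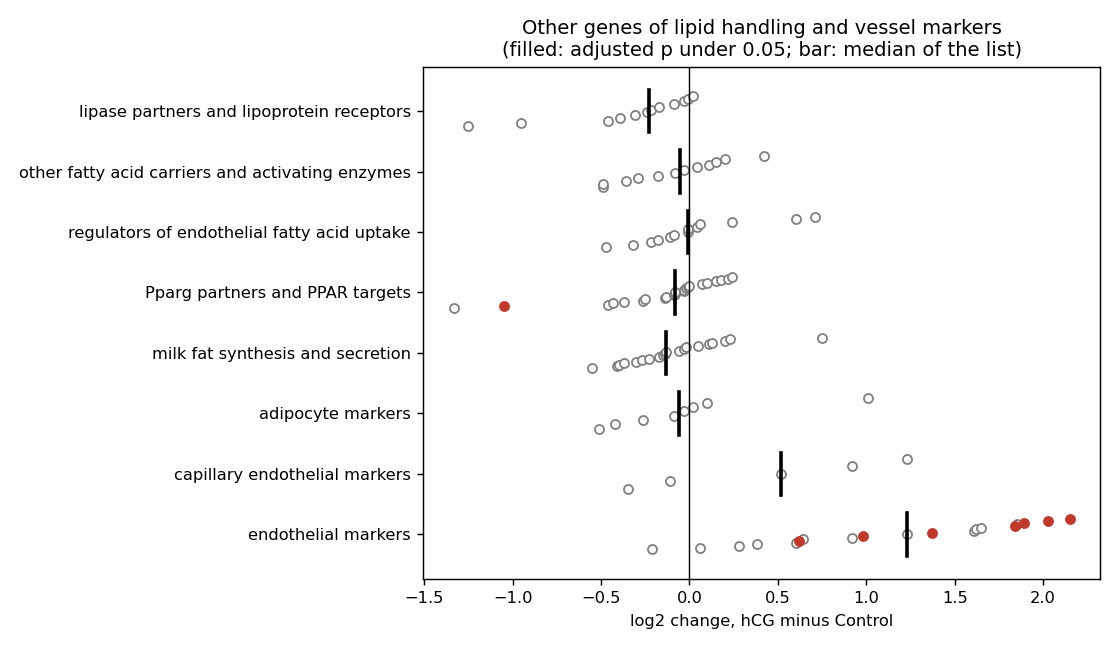
Log2 change, hCG minus Control, of each tested gene (points) in 8 lists of lipid handling and vessel genes (rows), filled where the limma adjusted p was under 0.05, with a bar at each list's median. The endothelial list has its median at 1.23, while the 4 lists of lipase partners, carriers, uptake regulators and PPAR targets have medians between -0.23 and -0.01.

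Bacterial poly-A transcripts added before labelling were lower on the hCG arrays (24 probe sets, mean log2 level 4.51 ± 0.34 against 5.56 ± 0.14, SD, n = 3 each; exact two-sided permutation p = 0.1, the smallest possible). This difference accompanied every result above, and its part in them was not tested. The median log2 value of an array was between 3.44 and 3.48, and the number of arrays limits the precision.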

How the data were processed

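RNA of 3 hCG and 3 Control mammosphere cultures was labelled with a two-cycle amplification, per the labels' protocols. The values were the authors' deposited log2 expression, 31099 probe sets per array. RMA, MAS5 and limma stand in the submitters' processing notes, with no role given. The log base and normalization were taken from the values (0.74 to 13.11, with nearly equal distributions on the 6 arrays). Groups and array numbers came from titles. Whether arrays were separate animals is not stated, and a p-value here reflects the spread among these arrays, possibly technical.

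Control probe sets (57) and the dimmest 40% of the rest, by mean over all arrays (log2 below 2.67), were left out, leaving 18625 probe sets. Names came from the platform annotation, updated by Entrez number with RefSeq (GRCr8). Probe sets naming several genes (436) were not used for genes, and each gene was represented by its brightest probe set (10424 genes). The test was limma 3.58.1 (lmFit, eBayes; R 4.3.3), two-sided, with Benjamini-Hochberg adjustment over genes, called at adjusted p under 0.05. It was also run on simulated data with independent noise of the same size on every array. That run does not measure how reliable the calls on these arrays are. Members, gene lists and the rule for named genes (all members, called list genes, the 3 smallest p of each list, set markers, nearest patterns) were chosen with earlier results of these data known. Other genes named beside them were chosen after their values were seen. Listed genes without a probe set naming them alone are not analysed here. Alternatives were other filters, scalings, weights, eBayes settings, a block, a threshold of 0.10, averaging all probe sets of a gene and each array left out. The use of a probe set naming Cd36 with another gene, the adjustment over all probe sets and the list counts under each alternative were added after seeing the data.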

Additional observations from a re-analysis of the deposited data

Results flagged for a closer look

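A probe set annotated to Cd36 together with Cd36l1 was outside the comparison, because it names more than 1 gene, and it carried a signal above the Control arrays. Its log2 expression was 7.34, 6.73 and 6.64 on the hCG arrays and 6.32, 6.19 and 6.49 on the Control arrays, with no overlap between the groups. The log2 change was 0.57 (SE 0.19, limma adjusted p = 0.153 over all tested probe sets), beside 0.53 for the probe set that names Cd36 alone, and both probe sets were highest on hCG 5. Groups of 3 arrays were not searched for single arrays that stand apart.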

How the results depend on the processing

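Limma called 190 genes, 844 at a threshold of 0.10, 306 with a variance trend and 2663 with array weights, which gave hCG 7 a weight of 7.25 and Control 7 one of 0.234. With 1 array left out in turn it called between 0 and 584, with 0 without hCG 5, hCG 7, Control 5 or Control 6, 338 without hCG 6 and 584 without Control 7. The array number as a block gave 118 genes. The labels do not state that array numbers are pairs, so they were not taken as such. Deviations of same-numbered arrays from their group means had correlations of -0.0868, 0.131 and 0.00155. Those of differently numbered arrays ran from -0.193 to 0.176. Deviations from a mean of 3 arrays are tied to each other, so these values cannot decide whether arrays were paired. Under the block the adjusted p of Fabp4 was 0.0450. Members called numbered 1, and 2 with array weights or at a threshold of 0.10 (Fabp4 and Gpihbp1), and between 0 and 1 with 1 array left out. The log2 change of Fabp4 lay between 1.63 and 2.16 in 16 alternatives, of which 12 kept the call, and adjusted over all tested probe sets its p was 0.0393. Cd36 lay between 0.29 and 0.66 in 17 alternatives with 0 calls, and Fabp3 between -0.35 and -0.02 in 16 with 0 calls. Fabp5 lay between -0.01 and 0.24 and Lpl between -0.04 and 0.11, with 0 calls in 16 alternatives each. Gpihbp1 lay between 0.47 and 0.74 in 15 alternatives with 1 call, under array weights. Pparg, tested without the filter, lay between 0.93 and 1.46 in 14 alternatives and passed in 3: array weights, a variance trend and without hCG 6. With 1 array left out, the change of Fabp4 exceeded that of Fabp3 by 1.74 to 2.39, of Fabp5 by 1.64 to 1.95, of Lpl by 1.52 to 2.16, of Adipoq by 1.45 to 2.01, of Cd36 by 1.10 to 1.66, of Gpihbp1 by 1.06 to 1.45 and of Pparg by 0.38 to 1.00. No scaling moved the median change of all genes by more than 0.02. The causes of these shifts were not tested.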

Other observations

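Genes of milk fat synthesis and secretion, which use the fatty acids that Lpl and Cd36 deliver in the lactating gland, gave no call among 20 tested genes (1 higher and 4 lower at an unadjusted p under 0.05). Over all tested genes 14.4% were higher and 9.64% lower at that p. Dgat1, which completes triglycerides, had log2 expression of 7.66, 7.99 and 7.76 on the hCG arrays and 8.30, 8.31 and 8.45 on the Control arrays, a log2 change of -0.55 (limma adjusted p = 0.0567). Xdh, a protein of the milk fat globule membrane, had a change of -0.41 (adjusted p = 0.0897), and the elongase gene Elovl6 one of 0.75 (adjusted p = 0.0958). Fasn, the fatty acid synthase gene, had a change of -0.17 (adjusted p = 0.264).

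Of 9 tested macrophage markers none was called by limma (3 higher and 3 lower at an unadjusted p under 0.05). Over all tested genes 14.4% were higher and 9.64% lower at that p. Cd68, a lysosomal protein of macrophages, had log2 expression of 6.06, 6.75 and 6.19 on the hCG arrays and 8.41, 7.25 and 7.31 on the Control arrays (log2 change -1.33, limma adjusted p = 0.0879). The leukocyte gene Ptprc had a change of -1.09 and the Fc receptor subunit gene Fcer1g one of 0.78 (adjusted p = 0.102 and 0.107). The mannose receptor gene Mrc1, below the filter level on average, had 2.68, 3.49 and 3.92 on the hCG arrays and 2.16, 1.98 and 1.54 on the Control arrays (log2 change 1.47, adjusted p = 0.0595 without the filter). Adgre1, a surface receptor gene of macrophages, had a change of 0.65 (adjusted p = 0.411). Csf1r, the receptor that defines the lineage, was below the filter level, with a change of -0.08.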
